A study of Homo sapiens with 6 samples.

Results

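Caspases are the proteases that carry out apoptosis, and cells hold them in check through inhibitor of apoptosis (IAP) proteins. The genes described here are *CASP8*, *CASP9* and *CASP6*, the apoptosome genes *APAF1* and *CYCS*, the IAP genes *XIAP*, *BIRC2* and *BIRC3*, and *DIABLO*, which encodes an antagonist of the IAP proteins. These 9 genes were listed by symbol for their roles in the pathway, with earlier results of these data known. Each was looked up through the gene names of the array. A named probe set was found for 8 of the 9 among the 21448 probe sets of the array, which name 17687 genes. *BIRC3* had no named probe set, so its expression is not analysed here, and only its promoter is read below. None of the 8 genes passed a test between the groups.

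RNA came from MDA-MB-231, an established human cell line of triple-negative breast cancer. Cells of the *circAAGAB* overexpression group were transfected with pCIRC2T7 carrying the sequence of *circAAGAB*, a circular RNA made of exons of *AAGAB*, and cells of the empty vector group were given the control plasmid. RNA of both groups was taken 24 h after transfection and measured on Clariom S arrays, 3 per group, numbered 1 to 3 in each. The transfection was transient in 1 line, and the 3 arrays of a group are not tied to separate cultures in the sources used here. The methods describe quantitative data in general as coming from independent experiments, without naming the arrays. The p-values therefore measure only the spread between these arrays, which may be technical.

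In the intrinsic route of apoptosis, cytochrome c leaves the mitochondria and binds APAF1, and the resulting apoptosome activates caspase 9. In the extrinsic route, ligand-bound death receptors activate caspase 8. Both initiators act on effector caspases, XIAP inhibits caspases by binding them, and the mitochondrial protein DIABLO (also called SMAC) releases caspases from that inhibition. Most of this control runs through protein binding and cleavage, which an array of RNA does not measure. The gene loci given below are those of RefSeq on GRCh38.p14.

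The transfected gene was checked first. *AAGAB*, whose product takes part in adaptor protein assembly, had log2 signals of 10.97, 11.75 and 11.11 on the *circAAGAB* overexpression arrays and 7.71, 7.56 and 7.73 on the empty vector arrays. It rose by 3.61 (SE 0.22) on the log2 scale, a 12.2-fold difference, with an adjusted p of 0.00319 by limma, adjusted by Benjamini-Hochberg across the whole array. The probe set does not tell RNA of the plasmid from RNA of the host gene. Array medians lay between 5.70 and 5.80, and the SDs of the array values were 2.08 and 2.11 on the arrays numbered 1 against 2.17 to 2.21 on the other 4. A log2 signal of 4.65, the 95th percentile of 348 olfactory receptor genes, served as a gauge of background, and a probe set with a mean below it is called dim. The 6 genes listed for a mesenchymal basal breast line, which include *VIM* and *CD44*, were all above the gauge with means of 9.95 to 11.6. *KRT18* is also in that list, but it encodes an epithelial keratin and is not specific to such a line. Among luminal breast markers 4 of 6 were dim, among them *PGR* (mean 1.90), while *EPCAM* (mean 7.77) and *GATA3* (mean 6.21) were above the gauge. *ESR1* counted as dim by a narrow margin, with a mean of 4.646 against 4.654. Its arrays numbered 1, at 5.01 and 4.98, were above the gauge. Of the measured markers, 3 of 4 for blood cells and 3 of 4 for fibroblasts were dim. The median signal of the mesenchymal basal list was 10.3 to 10.5 per array with *circAAGAB* and 10.3 to 10.4 with the empty vector. In that list the arrays of *AXL*, a receptor tyrosine kinase, were all lower with *circAAGAB* (10.02, 10.01 and 9.97) than with the empty vector (10.43, 10.24 and 10.31), a difference of -0.33 with an adjusted p of 1.00 (limma). Those of *FOSL1*, an AP-1 subunit, were all higher, with a difference of 0.15 and an adjusted p of 1.00 (limma), and the other 4 genes of the list overlapped.

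Promoter sequences were read because the transcription factor genes *EGR1* and *ATF3* had the ranks 2 and 4 by rise among all probe sets, as was known before the motifs were chosen. *EGR1* had log2 signals of 8.48, 8.59 and 8.87 with *circAAGAB* and 7.48, 7.42 and 7.35 with the empty vector (adjusted p = 0.478, limma), and *ATF3* had 7.25, 7.60 and 7.54 against 6.66, 6.45 and 6.64 (adjusted p = 1.00, limma). RefSeq promoters, 250 bases before to 50 after each gene start, were searched on both strands for the EGR1 motif GCGTGGGCG, the ATF and CREB motif TGACGTCA, and the AP-1 motif TGAGTCA. The 9 genes had 18 such promoters, since several have more than 1 start. The EGR1 letters were in 0 of the 18, and in 0.795% of all 35116 promoters. The ATF and CREB letters were in 2 of the 18, both windows of *BIRC2* around 1 site, and in 1.85% of all promoters. The AP-1 letters were in 2 of the 18, both at *CASP8* starts, and in 4.95% of all promoters. The ATF and CREB letters read the same on both strands, and at the 3 sites found no letters of a second motif overlap the match. The stretches with a match are printed because they show where these letters lie in the set, with the matched letters in capitals, as the + strand of GRCh38.p14 from RefSeq. The second *CASP8* stretch holds the reverse complement of the AP-1 letters.
*BIRC2*, chr11:102347147-102347239: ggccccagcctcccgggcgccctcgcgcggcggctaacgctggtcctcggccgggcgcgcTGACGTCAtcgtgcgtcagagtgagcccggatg
*CASP8*, chr2:201257974-201258065: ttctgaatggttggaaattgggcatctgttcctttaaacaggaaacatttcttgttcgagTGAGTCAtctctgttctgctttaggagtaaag
*CASP8*, chr2:201260415-201260506: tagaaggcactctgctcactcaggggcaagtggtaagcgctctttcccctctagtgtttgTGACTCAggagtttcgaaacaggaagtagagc
A match of letters is a description and shows neither binding nor its absence.

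The initiator caspases come first. *CASP8* (probe set TC0200010447.hg.1, chromosome 2, 201233463 to 201287711) encodes the protease that death receptors activate. Its log2 signals were 7.01, 7.85 and 7.90 on *circAAGAB* overexpression arrays 1 to 3, against 7.33, 7.93 and 7.63 on empty vector arrays 1 to 3. The arrays numbered 1 were the lowest in both groups, and the groups overlapped. The difference, *circAAGAB* overexpression minus empty vector, was -0.05 with a 95% interval of -0.67 to 0.58. Within the pairs of arrays that share a number, it was -0.32, -0.08 and 0.27, so that the third pair ran opposite to the others.

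*CASP9* (TC0100013000.hg.1, chromosome 1, 15491401 to 15524912) encodes the initiator that the apoptosome recruits. With *circAAGAB* it was at 4.80, 5.30 and 4.98 log2 units, against 5.24, 5.13 and 5.02 with the empty vector. Every array lay above the gauge of 4.65, but none by more than 1 log2 unit, and the *circAAGAB* arrays lay on both sides of the empty vector arrays. Its difference was -0.10 with an interval of -0.50 to 0.29.

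The effector caspase described here is *CASP6*. It (TC0400011578.hg.1, chromosome 4, 109664388 to 109709767) encodes an effector that cleaves lamins. The gene had log2 signals of 7.03, 7.50 and 7.47 on the *circAAGAB* arrays and 7.54, 7.39 and 7.50 on the empty vector arrays. A single array, *circAAGAB* number 1, lay apart below the other 5. The mean was 7.33 ± 0.26 with *circAAGAB* and 7.48 ± 0.08 with the empty vector (SD, n = 3 each), a difference of -0.15 with an interval of -0.54 to 0.25. Without *circAAGAB* replicate 1 the difference was 0.0049.

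The apoptosome genes went opposite ways by small amounts. *APAF1* (TC1200008574.hg.1, chromosome 12, 98645290 to 98735433) encodes the scaffold of the apoptosome. Its log2 signals of 5.19, 6.15 and 5.98 with *circAAGAB* stood against 5.61, 6.17 and 6.21 with the empty vector. Number 1 was again the lowest array of each group, and each *circAAGAB* array lay below its partner. *APAF1* had the difference of greatest size among the 8 genes, -0.22 with an interval of -0.87 to 0.42. The pair differences were -0.42, -0.02 and -0.22. With the replicate number as a block the interval was -0.53 to 0.09 and the adjusted p was 0.740 (limma).

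*CYCS* (TC0700010509.hg.1, chromosome 7, 25118656 to 25125260) encodes cytochrome c, an electron carrier of the respiratory chain that also triggers apoptosome assembly. The gene has processed pseudogenes with much the same sequence, so the signal may not be its own alone. On the *circAAGAB* arrays it was 9.72, 10.02 and 10.21 log2 units, and on the empty vector arrays 9.62, 9.90 and 9.99. Each *circAAGAB* array was above its partner, by 0.10, 0.12 and 0.22, while the groups overlapped. The difference of 0.15 had an interval of -0.28 to 0.57, and of -0.12 to 0.41 with the block (adjusted p = 0.787, limma). *APAF1* and *CYCS* were the 2 of the 8 genes with 1 direction in all 3 pairs. Of all probe sets, 30.1% had 1 direction in all 3 pairs.

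*DIABLO* (TC1200012861.hg.1, chromosome 12, 122207662 to 122227456) was at 7.93, 8.20 and 7.73 log2 units with *circAAGAB* and at 8.02, 7.85 and 7.84 with the empty vector. The *circAAGAB* group held both the highest and the lowest array. Its difference was 0.05 with an interval of -0.33 to 0.43.

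*XIAP* (TC0X00008330.hg.1, chromosome X, 123859708 to 123913972) encodes the IAP protein that inhibits caspases most directly, and the intronless gene *BIRC8* resembles it in sequence. It varied the most of the 8 genes, over 1.49 log2 units. The *circAAGAB* arrays were at 5.10, 6.34 and 6.59, against 5.17, 6.16 and 6.35 for the empty vector arrays. Both arrays numbered 1 were about 1 log2 unit or more below all others, whichever plasmid the cells had been given. The means were 6.01 ± 0.80 with *circAAGAB* and 5.89 ± 0.64 with the empty vector (SD, n = 3 each). The difference was 0.12, with an interval of -0.89 to 1.12 without the block and -0.18 to 0.41 with it.

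*BIRC2* (TC1100013088.hg.1, chromosome 11, 102347214 to 102378670) encodes cIAP1, a ubiquitin ligase of the TNF receptor complex, and lies beside its close relative *BIRC3* (102317484 to 102339403). Its log2 signals were 7.74, 8.50 and 8.75 with *circAAGAB*, against 7.83, 8.44 and 8.50 with the empty vector. As in *XIAP*, the array numbered 1 was the lowest of each group. The difference of 0.08 had an interval of -0.60 to 0.75, and the pair differences were -0.09, 0.06 and 0.25. The ATF and CREB letters printed above lie in its promoter windows.

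**Figure D1:**
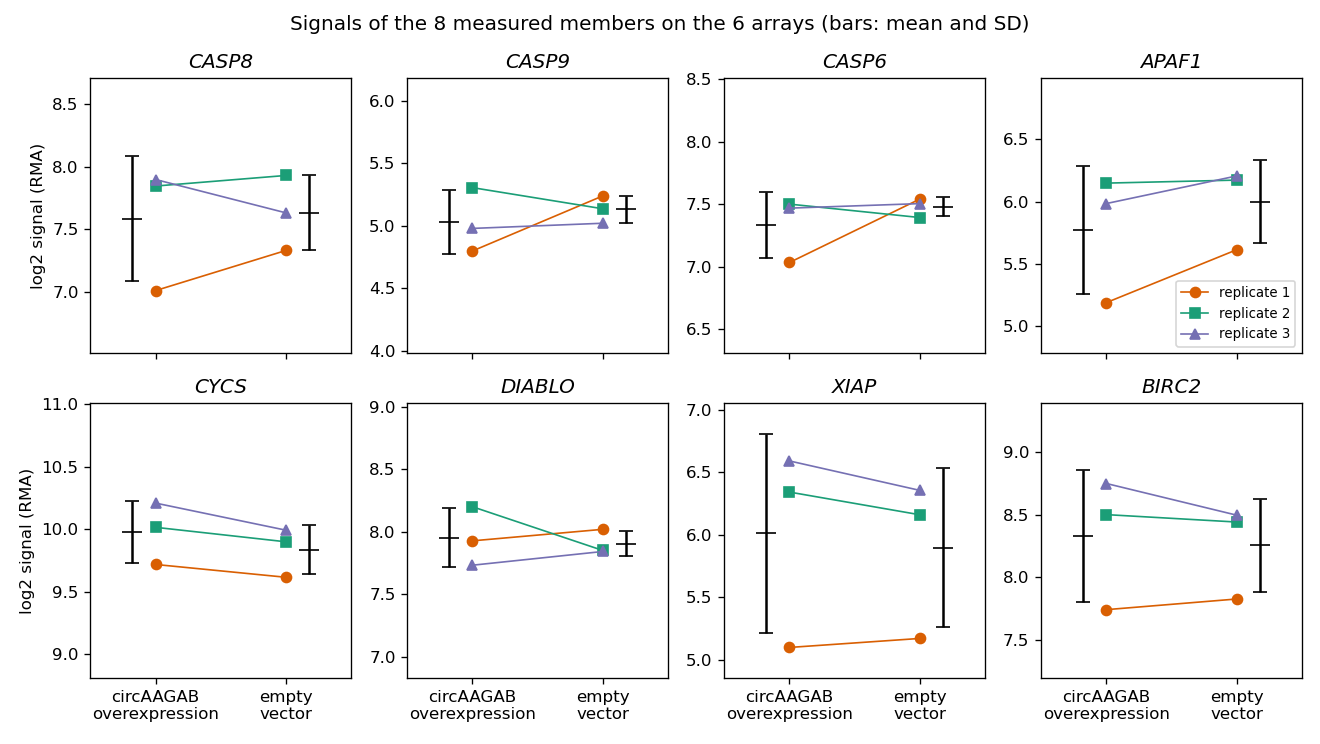
RMA log2 signals of the 8 measured genes, 1 panel per gene with *circAAGAB* overexpression left and empty vector right, and a line between arrays that share a replicate number. Black bars are the mean and SD of 3 arrays, and every panel spans the same number of log2 units. The arrays numbered 1 lie below the other 4 in *CASP8*, *APAF1*, *CYCS*, *XIAP* and *BIRC2*.

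In counts, 4 of the 8 genes were higher with *circAAGAB* (*CYCS*, *XIAP*, *BIRC2* and *DIABLO*) and 4 were lower (*CASP6*, *CASP8*, *CASP9* and *APAF1*), by amounts within the spread between arrays. An unadjusted p under 0.05 was reached by 0 of the 8, against 2.18% of all probe sets. With the replicate block it was again 0 of the 8, against 6.79% of all probe sets. After adjustment over all probe sets 0 of the 8 passed (adjusted p of 1.00 for each, limma), and *AAGAB* was the only probe set that did, 0.00466% of the array. The criteria of a fold change of at least 1.5 with an unadjusted p under 0.05 were met by 0 of the 8, against 0.373% of all probe sets. The arrays of the 2 groups overlapped in all 8 genes, whereas they did not overlap in 7.90% of all probe sets. Leaving out a single array turned the sign of every difference but that of *CYCS*. The median difference of the 8 genes was 0.00, and their median absolute difference was 0.11, as it was over all named genes.

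A p that misses the threshold does not show that the groups were alike, and the intervals give the sizes that these arrays leave possible. A 1.5-fold change is 0.58 on the log2 scale. For *CASP9*, *CASP6*, *CYCS* and *DIABLO* the 95% interval lay within 1.5-fold in either direction, which held for 53.3% of all probe sets. For *CASP8*, *APAF1*, *XIAP* and *BIRC2* it reached past 1.5-fold in at least 1 direction. With the replicate number as a block the interval of each of the 8 genes lay within 1.5-fold, which held for 77.5% of all probe sets. The plot of the differences shows how the block shortens the intervals of the genes whose arrays numbered 1 were low, which extended by 0.42 to 1.00 to either side without it and by 0.27 to 0.36 with it.

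**Figure D2:**
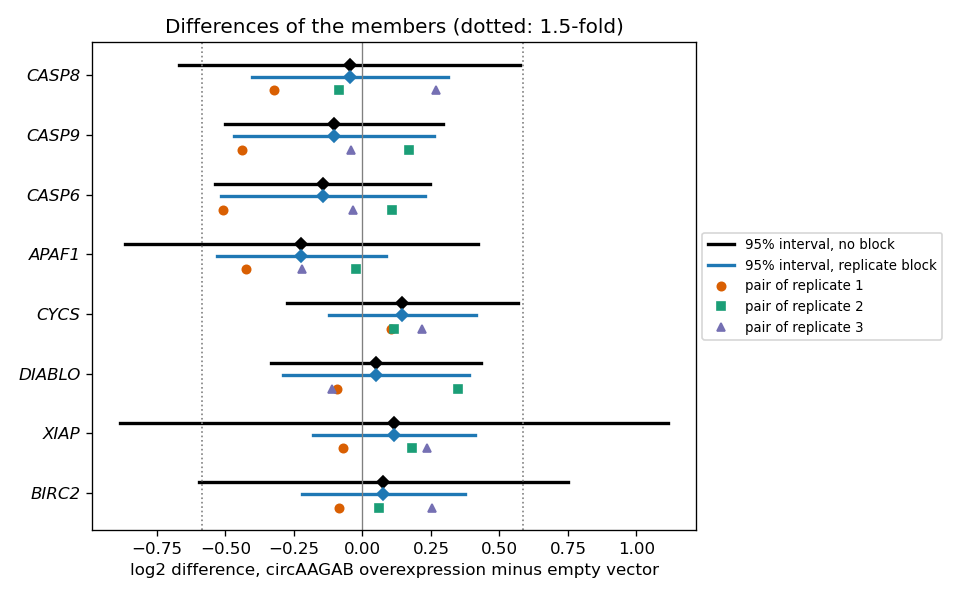
Differences in log2 signal (horizontal axis, *circAAGAB* overexpression minus empty vector) of the 8 measured genes, with 95% limma intervals without a block (black) and with the replicate number as a block (blue). The small symbols below are the differences of the 3 pairs, and the dotted lines mark 1.5-fold, which the blue intervals do not reach and the black intervals of *XIAP* and *BIRC2* pass on both sides.

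The replicate number went with more of the spread than the plasmid did. For *XIAP* 97.8% of the sum of squares over the 6 arrays lay between replicate numbers and 0.943% between the groups. The same shares were 95.5% and 1.03% for *BIRC2*, and 86.7% and 0.473% for *CASP8*. *APAF1* had 86.0% between numbers and 9.11% between groups, and *CYCS* had 84.6% and 13.7%. In *CASP9*, *CASP6* and *DIABLO* the share between numbers was lower, at 34.8%, 24.8% and 46.7%. Their shares between groups were 9.47%, 17.7% and 2.72%, and the rest was the largest part, at 55.7%, 57.6% and 50.6%. The median share between numbers was 85.3% over the 8 genes and 61.1% over all named genes, and the replicate numbers have more degrees of freedom than the groups. What the numbers stand for is not given in the sources used here.

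**Figure D3:**
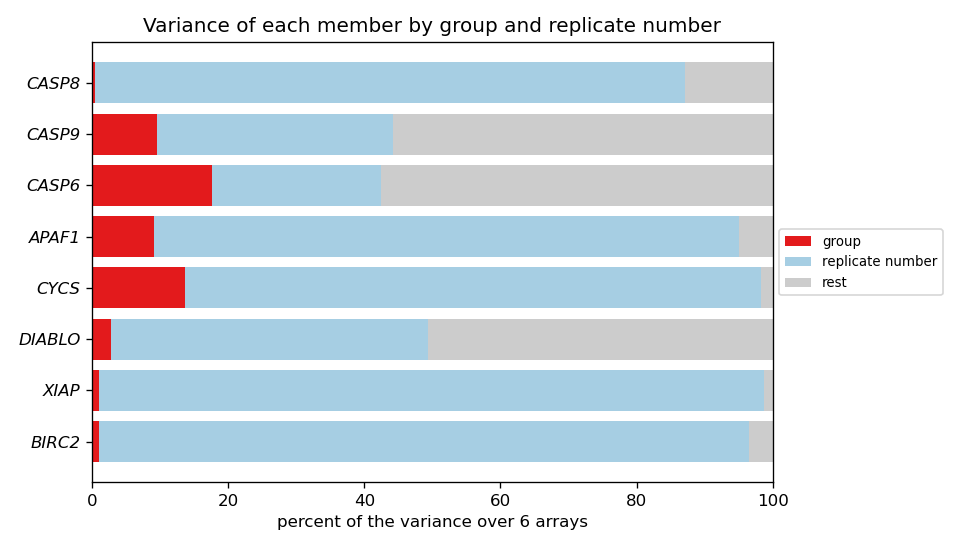
Percent of the sum of squares over the 6 arrays (horizontal axis) that lay between the groups, between the replicate numbers and in the rest, for each of the 8 measured genes. The part between replicate numbers ran from 24.8% in *CASP6* to 97.8% in *XIAP*.

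Both arrays numbered 1 lay below the other 4 in 5 of the 8 genes, against 19.5% of all probe sets. These 5 genes varied together over the 6 arrays, with Pearson's r of 0.675 to 0.995 between them, so they are not 5 separate observations. Of the 49 further pathway genes described below, 11 had both arrays numbered 1 below the other 4, and 14 had both above. The mean signals of the 5 members on number 1 were 5.13 for *XIAP*, 7.78 for *BIRC2*, 5.40 for *APAF1*, 7.17 for *CASP8* and 9.67 for *CYCS*. On numbers 2 and 3 together the means were 6.36 for *XIAP*, 8.55 for *BIRC2*, 6.13 for *APAF1*, 7.83 for *CASP8* and 10.03 for *CYCS*. The number 1 means of *XIAP* and *APAF1* lay nearest to the gauge of 4.65. The number 1 mean of *XIAP* was thus lower by 1.23, and 0.774% of all probe sets had a lower value of this difference. It is not a comparison of the plasmids, because each number holds 1 array of each group. An F test of the 3 replicate numbers, with the group in the limma model, gave an unadjusted p under 0.05 for the same 5 of the 8 genes, against 25.7% of all probe sets. After adjustment 0 of the 8 passed, and 0% of all probe sets did. The adjusted p was 0.0575 for *XIAP*, 0.0740 for *BIRC2*, 0.0867 for *APAF1*, 0.123 for *CASP8* and 0.186 for *CYCS*. Without dim probe sets 3 of the 8 genes passed this adjusted test, as did 1903 of the 14677 probe sets left. With an intensity trend and robust eBayes 5 of the 8 passed, as did 16.7% of all probe sets.

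Over the 6 arrays the named genes with a pattern most like that of *XIAP*, among 12458 above the gauge, were *UBA6*, a ubiquitin-activating enzyme, *ARL1*, a small GTPase of the Golgi, and *DNAAF10*, a factor of dynein assembly. Pearson's r was 0.999 for each, and 85 genes had an r over 0.99. The points share their arrays and the low arrays numbered 1, so that r largely restates that pattern.

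Around the 8 genes, lists of 56 further genes of the pathway were read from the same fit, and 49 had a named probe set. Of these 49, 18 were higher and 31 lower with *circAAGAB*, against 8816 higher and 8871 lower of all 17687 named genes. The 49 had a median difference of -0.04 and a range of -0.54 to 0.24. No list was tested as a set. By limma, 0 of the 49 had an unadjusted p under 0.05 and 0 an adjusted one. With the replicate block *CASP2* and *PARP1* had an unadjusted p under 0.05, against 6.79% of all probe sets, and 0 an adjusted one. The groups did not overlap in 3 of the 49, all lower with *circAAGAB*, against 7.90% of all probe sets in either direction.

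Of the other caspases, 6 were measured, 2 higher and 4 lower. *CASP2*, a caspase linked to DNA damage and mitotic stress, was at 7.56, 7.92 and 8.22 with *circAAGAB* and 8.22, 8.27 and 8.52 with the empty vector. Each *circAAGAB* array was below its partner, and the difference was -0.44 with an interval of -0.89 to 0.02. The adjusted p was 1.00 without the block and 0.724 with it (limma). *CASP4*, an inflammatory caspase, differed by 0.19. *CASP1*, which matures IL-1 beta, differed by 0.16 and was dim, as were *CASP5* and *CASP14*. Other IAP family genes were measured in 4 of 5 cases, 2 higher and 2 lower. *NAIP*, a sensor of bacterial proteins, differed by 0.24, *BIRC7* by 0.05 and *BIRC6*, a giant IAP protein with ubiquitin-conjugating activity, by -0.04.

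All 5 genes of IAP-binding and mitochondrial death proteins were measured, 2 higher and 3 lower. *AIFM1*, a mitochondrial flavoprotein that can move to the nucleus in cell death, was at 6.22, 6.30 and 6.47 with *circAAGAB*, below each of 6.78, 6.48 and 6.49 with the empty vector. The arrays numbered 3 differed by little, and the difference of -0.26 had an interval of -0.62 to 0.11. *SEPTIN4*, of which an isoform binds XIAP, differed by -0.13, and *HTRA2*, a mitochondrial protease that binds IAP proteins, by 0.05. All 5 regulators of the apoptosome were measured too, 2 higher and 3 lower. *HSPB1*, a small heat shock protein, and *CSE1L*, an export factor of importin alpha, each differed by 0.17, and *AVEN*, an inhibitor of apoptosome assembly, by -0.14.

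On the death receptor route to caspase 8, 10 of 13 genes were measured, 5 higher and 5 lower. *TNFRSF10B*, a receptor of the ligand TRAIL, was at 6.34, 7.00 and 6.85 with *circAAGAB*, below 7.08, 7.03 and 7.04 with the empty vector. The arrays numbered 2 were almost level, and the difference was -0.32 with an interval of -0.76 to 0.13. *TNFRSF10A*, the other death-inducing TRAIL receptor, was at 7.36, 7.31 and 7.22 against 7.57, 7.42 and 7.49, a difference of -0.20 with an interval of -0.51 to 0.12. *FAS*, the receptor of FAS ligand, differed by 0.23 with an interval of -0.21 to 0.66.

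All 12 caspase substrates were measured, 3 higher and 9 lower. *PARP1*, a DNA damage sensor cleaved in apoptosis, was at 6.01, 6.80 and 7.06 with *circAAGAB* and 6.99, 7.19 and 7.32 with the empty vector. It was lower in each pair, although the groups overlapped. The difference was -0.54 with an interval of -1.16 to 0.07, and the adjusted p was 1.00 without the block and 0.724 with it (limma). *DFFA*, the inhibitor of the caspase-activated DNase, differed by -0.27 and *LMNB1*, a nuclear lamin, by -0.22. For the partners of *BIRC2* and *BIRC3*, 7 of 8 genes were measured, 2 higher and 5 lower. *RNF31* and *RBCK1*, subunits of the linear ubiquitin ligase, differed by -0.22 and -0.10, and *TRAF3*, an adaptor of the NIK degrading complex, by -0.07.

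**Figure D4:**
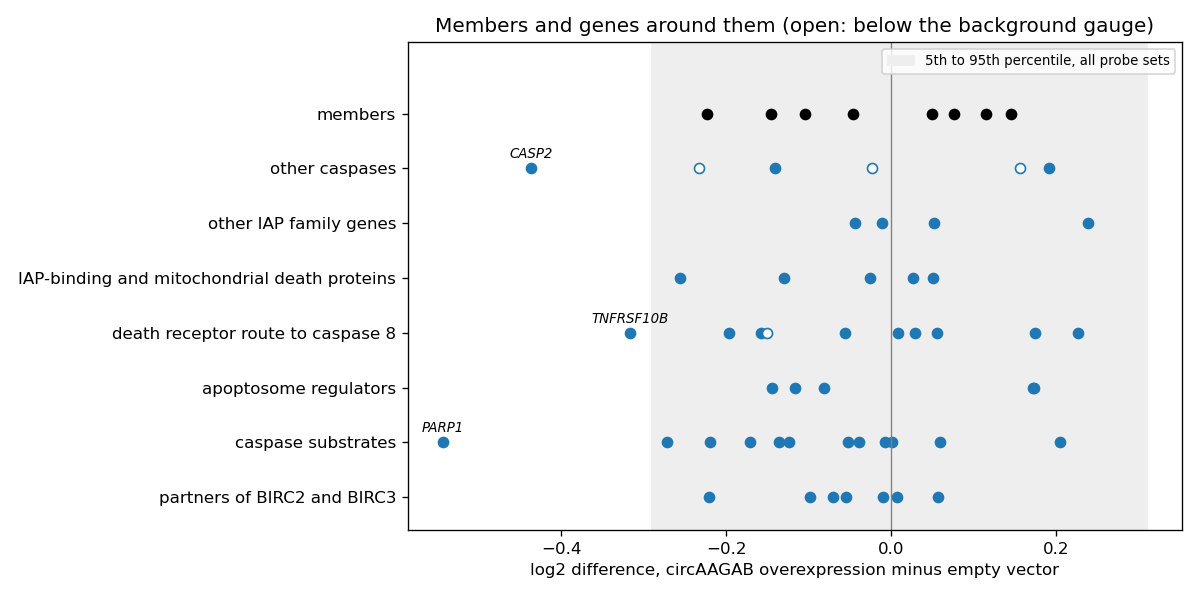
Differences in log2 signal (horizontal axis, *circAAGAB* overexpression minus empty vector) of the 8 measured genes (members, black) and of 49 genes around them (blue, 1 row per list, open where dim). The grey band holds the 5th to 95th percentile of all probe sets, -0.29 to 0.31, and only *CASP2*, *TNFRSF10B* and *PARP1* lie outside it.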

How the data were processed

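Total RNA of 3 *circAAGAB* overexpression and 3 empty vector samples was hybridised to Clariom S arrays. The deposited values are log2 signals that the authors made by robust multichip averaging (RMA), and they were not normalised again. The software is not given in the sources used here. Because RMA makes the arrays alike in distribution, a shift of all genes would not show. Arrays give no read depth, and their number limits the precision.

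Probe sets were named through the annotation of the array, updated by gene identifier (GRCh38.p14), and 17709 of 21448 had 1 symbol. Each of the 8 genes had 1 probe set. Differences were fitted across the whole array by limma (version 3.58.1, R 4.3.3), two-sided and without a covariate, and p-values were adjusted by Benjamini-Hochberg with a threshold of 0.05. The fit and the F test were tested on simulated data. The members and lists were chosen with earlier results of these data known. Named are every member, up to 3 genes of smallest p per list, *AAGAB*, and the 3 genes most like the member of widest range. *EGR1*, *ATF3*, *CASP5*, *CASP14* and *ROCK1* fall outside this rule and were chosen after their values were seen, as was the F test. The same holds for the genes named from the cell type lists (*VIM*, *CD44*, *KRT18*, *AXL*, *FOSL1*, *ESR1*, *PGR*, *EPCAM* and *GATA3*). Protein sequences were not used here.

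The replicate numbers come from the labels. Deviations from the group means correlated at 0.603, 0.189 and 0.549 between arrays numbered 1, 2 and 3, each over 0.1. That was the rule used for showing pairs and a block beside the main fit, which was itself unpaired. Arrays of unlike numbers were not compared, so these values do not show that the numbers pair the arrays better than another assignment would. The alternatives were the replicate block, the methods' unpaired Student test, a filter on dim probe sets, quantile normalization, median centring, an intensity trend with robust eBayes, the mean of all probe sets of a gene, and leaving out arrays.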

Additional observations from a re-analysis of the deposited data

How the results depend on the processing

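No member passed the adjusted test under any of 14 alternatives, and the lowest adjusted p was 0.600, for *XIAP* without *circAAGAB* replicate 1. The replicate block changed no call of a member. The count over all probe sets at an unadjusted p under 0.05 was 1457 with the block and 468 without. Differences stay the same under the block, because each number holds 1 array of each group, so the median difference was again 0.00. The methods' Student test gave 888 at that threshold and 0 after adjustment. The mean of all probe sets could not differ, since each member has 1. Of 112 values of members, 15 changed sign, and the causes were not tested. The 112 include values fixed in advance. Differences under the block, the Student test, the filter on dim probe sets, the intensity trend and the mean of all probe sets could not change. With both arrays numbered 1 left out, *CASP8* differed by 0.091, *CASP9* by 0.064 and *CASP6* by 0.036, and 3 members (*APAF1*, *CYCS* and *BIRC2*) did not overlap, against 39.4% of all probe sets with 2 arrays a group. Leaving out 1 array gave -0.20 to 0.24 for *CASP8*, -0.24 to 0.010 for *CASP9*, -0.23 to 0.0049 for *CASP6*, -0.41 to 0.069 for *APAF1*, -0.25 to 0.57 for *XIAP*, -0.14 to 0.37 for *BIRC2*, -0.074 to 0.16 for *DIABLO* and 0.031 to 0.28 for *CYCS*, the only one that kept its sign. Members without overlap then numbered 0 to 2, with 2 (*CYCS* and *BIRC2*) without *circAAGAB* replicate 1, where 29.7% of all probe sets did not overlap. The median difference of the members stayed between -0.15 and 0.15. In the F test of the replicate numbers, 0 members passed after adjustment with all probe sets, where 0 probe sets did. The count was 3 without the dim ones (1903 of 14677 probe sets), 1 with median centring (2.38% of all probe sets) and 5 with the intensity trend and robust eBayes (16.7%). Leaving out 1 array gave 0 to 3 members there, with 3 (*APAF1*, *XIAP* and *BIRC2*) without empty vector replicate 1, where 9.56% of all probe sets passed. Signals near the gauge carry little above background, such as those of *CASP9* and those of *XIAP* on the arrays numbered 1 (5.10 and 5.17). *APAF1* on *circAAGAB* number 1 was at 5.19.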

Other observations

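*ROCK1*, a kinase that caspases cleave and activate, had the widest range over the 6 arrays among the caspase substrates, 2.25 log2 units, and was chosen after its values were seen. Its log2 signals were 5.28, 6.88 and 7.53 with *circAAGAB* and 5.90, 6.64 and 7.15 with the empty vector, while the difference between the group means was 0.00 with a 95% interval of -1.27 to 1.27. Number 1 was the lowest array in both groups, as for *XIAP* and *BIRC2*.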
